A study of Homo sapiens with 17 samples.

Results

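RNA of neurons from the UTX knockout line 2 (KO2) was compared with RNA of wild-type (WT) neurons over all genes with enough counts. The comparison used 2 KO2 and 3 WT libraries, which are 5 of the 8 RNA libraries and of the 17 samples of the series. All samples were neurons grown from H9, an established human embryonic stem cell line, and collected on day 40 of culture. KO2 carries the genotype UTX-/- and WT is labelled wild type. Both groups are labelled passage P40. They share the same differentiation through embryoid bodies and a neural progenitor stage with retinoic acid and FGF2, followed by maturation in BDNF, GDNF, dibutyryl-cAMP and ascorbic acid. KO2 is 1 line. Whether it came from 1 clone, and whether its replicates came from separate differentiations, the labels leave unsaid. The p-values below therefore reflect the spread among these 5 libraries alone, and that spread may be technical.

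UTX, encoded by KDM6A on the X chromosome, is the demethylase that erases histone H3 lysine 27 methylation, and it also belongs to the COMPASS-type complexes that methylate lysine 4 at enhancers. Methylated lysine 27 (H3K27me3) is deposited by Polycomb complexes at developmental genes that are kept silent, and promoters that carry it together with lysine 4 methylation are called bivalent. In neural differentiation, such promoters include regulators of other lineages and of position along the neural axis.

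The KO2 libraries held 23251015 and 21471777 estimated counts and the WT libraries 23940006, 27779687 and 17374615. At least 10 counts were reached by 18433 and 17895 genes in KO2 and by 18179, 18314 and 17536 genes in WT. Levels are given as CPM, the counts scaled to a common library total with TMM factors, and folds are KO2 over WT. KDM6A RNA itself was measured at 25.9 and 34.9 CPM in KO2, against 36, 36.7 and 35.2 CPM in WT. Both KO2 values lay below the WT values, with a log2 fold change of -0.24 (SE 0.172; edgeR FDR 0.394). A count over the whole gene need not drop after a small deletion, and where the gene was edited is unstated, so this level does not check the genotype.

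Called increases in KO2 neurons included 20 of 25 connective tissue matrix genes and 13 of 15 contractile genes. Called decreases included 13 of 26 cell division genes, 8 of 27 neural progenitor genes and 7 of 25 pan-neuronal markers, of which 2 others were called higher. With 1 of the WT replicates left out, the increases numbered 9 to 15 for matrix and 8 to 12 for contractile genes. The decreases then numbered 0 for cell division, 2 or 3 for neural progenitor and 3 for pan-neuronal genes. Of 18878 genes tested, edgeR's quasi-likelihood test with Benjamini-Hochberg adjustment called 2251 (11.9%) at an FDR under 0.05. The calls were 1558 genes higher in KO2 (8.25%) and 693 lower (3.67%), and 2055 of them were protein coding. The typical increase was larger than the typical decrease, with median log2 fold changes of 2.15 and -1.11 among the calls and -0.02 over all genes tested. A change of at least 4-fold was reached by 842 of the higher and 96 of the lower genes. The plot of fold change against level shows both directions.

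**Figure D1:**
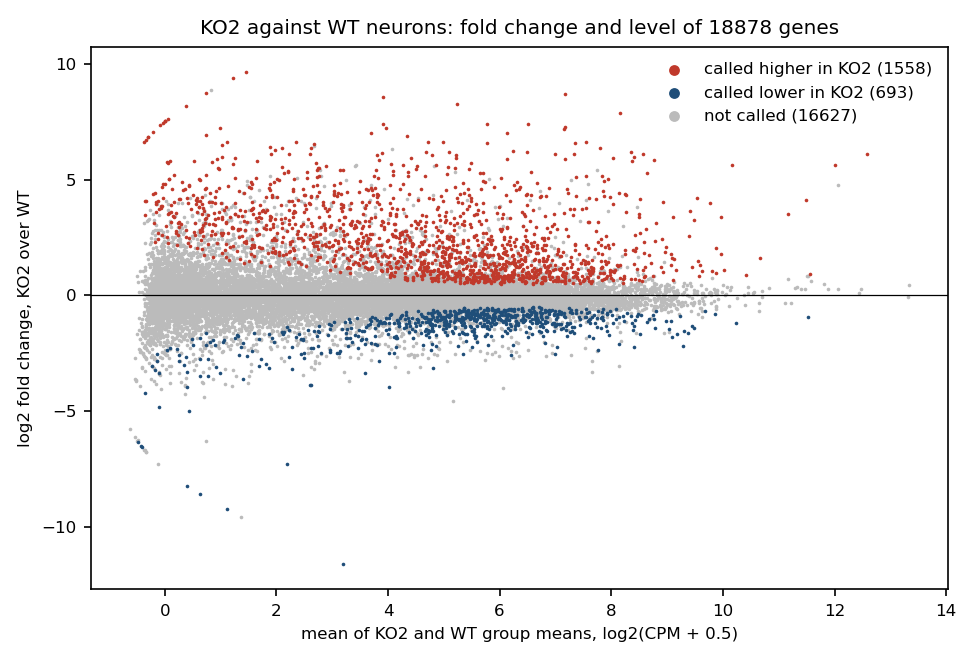
Log2 fold change of KO2 over WT against the mean of both groups' levels in log2(CPM + 0.5), with 1 point for each of the 18878 genes tested. Of the 1558 genes called higher, 842 lie at a change of at least 4-fold, and of the 693 called lower, 96 do. UTP14C, listed at 0 in KO2, is the lowest point, and its fitted fold depends on the prior count.

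The number of calls depended on the tool and on which libraries entered the fit. On the same 5 libraries DESeq2 called 13.7% of genes higher and 9.53% lower. With 1 of the 5 libraries left out, edgeR called 1078 genes without KO2 replicate 1, 2200 without KO2 replicate 2, and 655, 539 and 810 genes without WT replicates 1, 2 and 3. The call held in all 5 of these fits for 360 genes, 310 higher and 50 lower, and genes of this kind are called stable here. With the 3 libraries of the other knockout line, KO1, added to make 3 groups, edgeR called 0 genes (smallest FDR 0.257; 3566 genes at an unadjusted p under 0.05), whereas DESeq2 called 652 higher (3.35%) and 226 lower (1.16%). With KO1 replicate 2 left out of that fit, edgeR called 3228 genes, among them 2193 of the 2251.

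Genes of extracellular matrix and mesenchyme held most of the largest increases. MGP, an inhibitor of soft-tissue mineralisation, had 309.5 and 265.1 CPM in KO2, against 0.77, 0.035 and 1.4 CPM in WT. Both KO2 libraries stood far above every WT library, with a log2 fold change of 8.71 (SE 0.855; edgeR FDR 0.00785). TNMD, the tendon membrane protein tenomodulin, had 24.7 and 33.3 CPM in KO2, against 0.162, 0.21 and 0.107 CPM in WT (log2 fold change 7.41, SE 0.339; edgeR FDR 0.00629). IGFBP3, a carrier of insulin-like growth factors, had 430.6 and 134.9 CPM in KO2, against 1.46, 1.19 and 3.22 CPM in WT (log2 fold change 7.21, SE 0.694; edgeR FDR 0.00739). ACAN, the cartilage proteoglycan aggrecan, had 9.14 and 8.98 CPM in KO2, against 0, 0.105 and 0.161 CPM in WT, and both KO2 libraries were nearly level. MGP, TNMD, IGFBP3 and ACAN were stable calls, with edgeR FDRs of at most 0.0469 whichever library was left out.

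Other large increases were unequal between the KO2 libraries. EGFL6, a secreted protein with EGF repeats, had 79.0 CPM in KO2 replicate 1 and 1055.9 CPM in KO2 replicate 2, against 0.203, 0.736 and 6.66 CPM in WT (log2 fold change 7.87, SE 1.71; edgeR FDR 0.0404). KLK5, a serine protease of the epidermis, ran the other way, with 56.7 and 1.02 CPM in KO2 replicates 1 and 2, against 0.203, 0 and 0 CPM in WT (log2 fold change 8.59, SE 1.96; edgeR FDR 0.0454). CPA4, a carboxypeptidase, had 135.7 and 13.0 CPM in KO2, against 0.122, 0.28 and 0.322 CPM in WT. In each of these genes the lower KO2 library lay above all WT libraries, which the rule that chose them required. EGFL6 kept its call only without KO2 replicate 1, and its FDR was 0.0566 to 0.130 with any other library left out. KLK5 kept its call only without KO2 replicate 2, and its FDR without KO2 replicate 1 was 0.216. CPA4 lost its call without any 1 of the WT replicates (FDR 0.0632 to 0.0684).

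Transcription factors of mesenchymal and vascular lineages were also among the 15 largest increases. ERG, an ETS-family factor of endothelium and cartilage, had 22.5 and 37.4 CPM in KO2, against 0.0405, 0 and 0.645 CPM in WT (log2 fold change 7.22, SE 1.09; edgeR FDR 0.017). PRRX2, a homeobox factor of limb and facial mesenchyme, had 26.2 and 51.8 CPM in KO2, against 0.081, 0.035 and 0.967 CPM in WT. WT replicate 3 was the highest of the WT libraries for both ERG and PRRX2. Each lost its call without WT replicate 1 (FDR 0.0619 for ERG and 0.061 for PRRX2) and without WT replicate 2 (FDR 0.051 for ERG and 0.0568 for PRRX2). The matrix genes COL8A2 and SMOC2, the estrogen sulfotransferase gene SULT1E1, the collagen prolyl hydroxylase subunit P4HA3 and the osteoblast membrane protein TMEM119 also belong to the 15, with log2 fold changes of 6.65 to 7.39. In each of them KO2 replicate 2 was the higher KO2 library. KO2 replicates 1 and 2 had 39.4 and 237.1 CPM for SULT1E1 and 7.17 and 42.2 CPM for P4HA3. They had 123.3 and 447.8 CPM for SMOC2, 32.4 and 90.9 CPM for TMEM119 and 126.3 and 232.3 CPM for COL8A2. COL8A2 and SMOC2 lost their call without WT replicate 1 (FDR 0.0753 and 0.0532), and SULT1E1, P4HA3 and TMEM119 kept theirs in 2 of the 5 fits (highest FDR 0.111, 0.0767 and 0.0914).

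**Figure D2:**
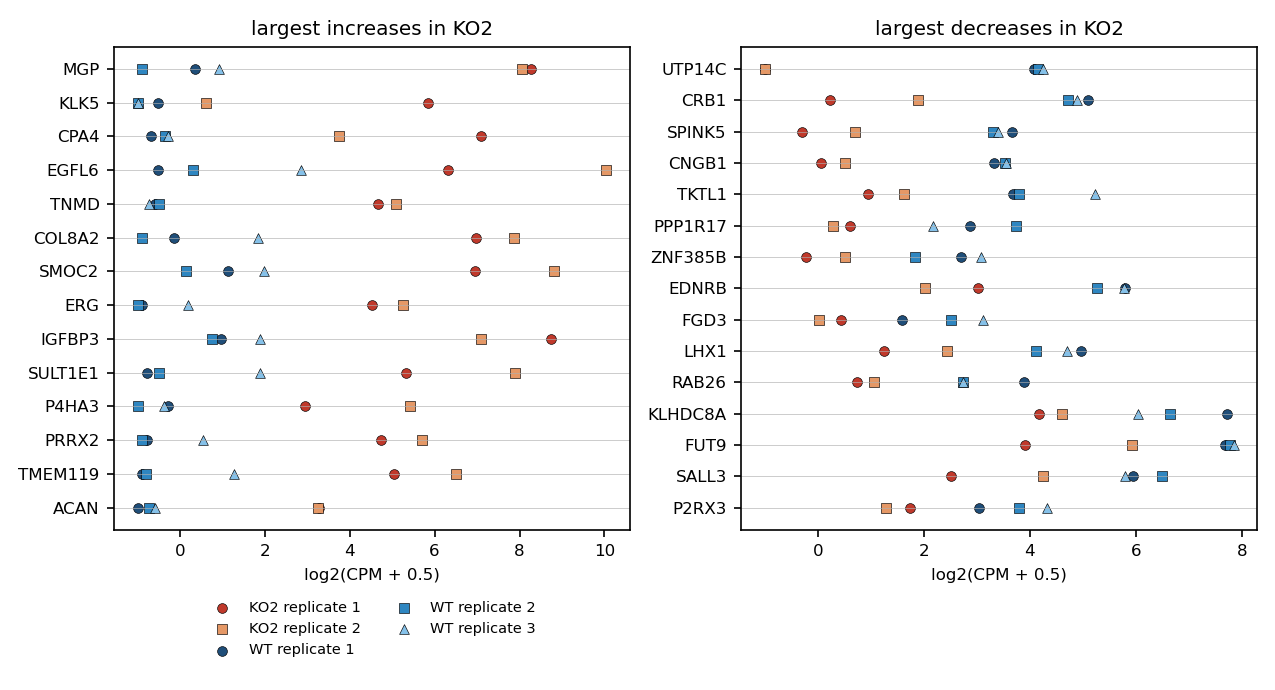
Level of 14 of the 15 largest increases (left) and the 15 largest decreases (right) in log2(CPM + 0.5), with 1 symbol per library. Red and orange symbols are the KO2 libraries and blue symbols the WT libraries. By the rule that chose the genes, none shown has a KO2 library inside the WT range. EGFL6, KLK5 and CPA4 show the widest gaps between the KO2 libraries.

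The promoters of 3 of these genes are shown because each overlaps an H3K27me3 peak of the WT peak list. They run from 250 bases before to 50 after the start site, 5′ to 3′ on the strand of the gene, from RefSeq (GRCh38.p14), with CG in capitals because Polycomb marks tend to lie at CG-rich promoters.
EGFL6: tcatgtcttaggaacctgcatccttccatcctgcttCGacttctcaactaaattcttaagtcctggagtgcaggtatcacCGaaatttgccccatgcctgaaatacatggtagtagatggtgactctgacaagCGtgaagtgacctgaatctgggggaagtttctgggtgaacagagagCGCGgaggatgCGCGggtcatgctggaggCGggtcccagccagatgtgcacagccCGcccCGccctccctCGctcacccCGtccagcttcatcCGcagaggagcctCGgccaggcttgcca
COL8A2: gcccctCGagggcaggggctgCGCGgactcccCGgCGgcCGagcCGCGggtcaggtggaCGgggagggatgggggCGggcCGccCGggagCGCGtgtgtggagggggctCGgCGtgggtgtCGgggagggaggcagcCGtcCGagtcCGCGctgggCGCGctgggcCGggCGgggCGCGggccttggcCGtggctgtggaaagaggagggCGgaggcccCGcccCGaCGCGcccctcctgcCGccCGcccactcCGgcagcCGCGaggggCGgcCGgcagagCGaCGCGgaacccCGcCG
ERG: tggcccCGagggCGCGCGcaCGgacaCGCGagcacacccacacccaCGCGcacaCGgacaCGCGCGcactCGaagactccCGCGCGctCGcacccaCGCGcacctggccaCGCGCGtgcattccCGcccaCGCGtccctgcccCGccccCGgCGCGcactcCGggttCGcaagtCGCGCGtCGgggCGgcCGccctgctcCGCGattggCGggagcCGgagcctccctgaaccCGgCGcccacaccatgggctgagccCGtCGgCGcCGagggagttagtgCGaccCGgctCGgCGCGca

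The EGFL6 promoter (chrX:13569351-13569650, plus strand) holds 14 CG, and 50.3% of the 35116 promoters in the reference hold at least as many. The COL8A2 promoter (chr1:36125173-36125472, minus strand) holds 45 CG, a number reached by 3.48% of promoters. The ERG promoter (chr21:38660618-38660917, minus strand) holds 53 CG, a number reached by 0.604%. The WT peak over it was 3848 bases long with a fold enrichment of 15.8, and the KO list has a peak of 3813 bases there with a fold of 11.7. At COL8A2 the peak was 3522 bases long with a fold of 10.3 in the KO list and 3095 bases with a fold of 16.2 in the WT list. At EGFL6 it was 1945 bases with a fold of 7.65 in the KO list and 1316 bases with a fold of 9.32 in the WT list. Folds are the authors' own values and describe each list alone. A KO list peak also overlapped the promoters of SMOC2 and IGFBP3, the other genes among the 5 largest increases with a WT peak.

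The largest decreases other than UTP14C came from genes of mixed function. CRB1, which organises the apical membrane of neuroepithelial and retinal cells, had 0.672 and 3.21 CPM in KO2, against 33.6, 26.0 and 29.0 CPM in WT (log2 fold change -3.94, SE 0.647; edgeR FDR 0.0199). CNGB1, a subunit of the cyclic-nucleotide-gated channel of rods, had 0.538 and 0.918 CPM in KO2, against 9.48, 11.0 and 11.2 CPM in WT (log2 fold change -3.86, SE 0.369; edgeR FDR 0.0073). EDNRB, an endothelin receptor of neural crest and glia, had 7.57 and 3.57 CPM in KO2, against 55.0, 38.1 and 54.1 CPM in WT (log2 fold change -3.13, SE 0.389; edgeR FDR 0.0114). The KO2 libraries lay well below WT in all of these. CNGB1 and EDNRB were stable calls, and CRB1 lost its call without any 1 of the WT replicates (FDR 0.0639 to 0.0684). Also lower were LHX1, a LIM homeobox factor (1.88 and 4.9 CPM in KO2, against 30.9, 16.9 and 25.5 CPM in WT), and P2RX3, a purinergic receptor of sensory neurons (2.82 and 1.94 CPM in KO2, against 7.74, 13.4 and 19.6 CPM in WT). LHX1 kept its call only without KO2 replicate 2 and P2RX3 only without WT replicate 1, with FDRs of 0.0504 to 0.0938 in the other fits. SPINK5, TKTL1, PPP1R17, ZNF385B, FGD3, RAB26, KLHDC8A, FUT9 and SALL3 had log2 fold changes of -3.88 to -2.53. None of these 9 was a stable call: RAB26 lost its call in all 5 fits (FDR 0.0566 to 0.126), and each of the others kept it in 1 or 2 of the 5, with a highest FDR of 0.0602 to 0.145.

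UTP14C, a retrotransposed copy of the nucleolar gene UTP14A, was listed at 0 in both KO2 libraries, against 16.3, 17.2 and 18.4 CPM in WT. Set against a floor of 3 counts per library (0.134 and 0.153 CPM), the level was at least 113-fold lower in KO2, and the call was stable (edgeR FDR 0.00629). The annotation places UTP14C (13, 52024691 to 52033600, GRCh38.p14) inside the span of ALG11, a mannosyltransferase gene, whose RNA was higher at 75.1 and 76.0 CPM in KO2, against 36.1, 42.3 and 42.9 CPM in WT (edgeR FDR 0.0164). Reads of these overlapping genes, and of UTP14A (17.8 and 16.0 CPM in KO2, against 15.5, 16.5 and 13.1 CPM in WT), can be split differently by the counting, so both values are uncertain.

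Genes of connective tissue were higher in both KO2 libraries. Of 23 fibroblast and mesenchymal markers tested, all had both KO2 libraries above every WT library, against 24.9% of all genes tested, and 12 were called higher (3 without WT replicate 1, and 7 to 10 without another library). The list's summed level was 33662 and 50784 CPM in KO2, against 2268, 1233 and 3737 CPM in WT, and its median log2 fold change was 3.82. COL1A1, the main chain of collagen I, had 9226.5 and 14885.2 CPM in KO2, against 125.7, 7.82 and 387.8 CPM in WT (log2 fold change 6.12, SE 1.44; edgeR FDR 0.0482). WT libraries differed widely among themselves, and COL1A1 kept its call only without WT replicate 2 (FDR 0.0776 to 0.143 with another library left out). COL3A1, with 6901.7 and 9557.9 CPM in KO2, against 226.0, 9.81 and 672.4 CPM in WT, did not pass (edgeR FDR 0.0849). FN1, the matrix glycoprotein fibronectin, had 4646.0 and 6170.8 CPM in KO2, against 208.5, 206.0 and 520.3 CPM in WT (log2 fold change 4.12, SE 0.484; edgeR FDR 0.0101). FBN1, a microfibril protein, had 376.0 and 610.6 CPM in KO2, against 26.0, 25.1 and 45.1 CPM in WT. FN1 and FBN1 were stable calls. DPT, a dermal matrix protein of the same list, did not pass the filter on low counts and was near 0 in both KO2 libraries (0.045 and 0.0505 CPM). In bulk RNA, more cells of a type and more RNA per cell cannot be told apart.

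Matrix, contractile and regulatory genes moved with these markers. Of 25 genes of connective tissue matrix and cartilage, 20 were called higher and 0 lower (median log2 fold change 5.61), and 9 were called higher without WT replicate 1, against 14 to 17 without another library. SPARC, a collagen-binding matrix protein, had 4078.1 and 4389.4 CPM in KO2, against 444.6, 262.5 and 382.2 CPM in WT (log2 fold change 3.54, SE 0.259; edgeR FDR 0.00629). Of 15 smooth muscle and contractile genes, 13 were called higher, and all 15 had both KO2 libraries above WT (median 3.66). With a library left out, 8 to 13 were called, the fewest without WT replicate 1. TAGLN, an actin-binding protein of smooth muscle, had 814.5 and 490.9 CPM in KO2, against 9.81, 6.1 and 19.2 CPM in WT, and CALD1, caldesmon, had 732.6 and 647.8 CPM in KO2, against 110.4, 72.5 and 99.7 CPM in WT. Of 37 mesenchymal and skeletal transcription factors, 21 were called higher and 0 lower (median 4.19), but 7 without WT replicate 1 and 7 without WT replicate 2. SNAI2, a factor of epithelial-to-mesenchymal transition, had 83.3 and 85.5 CPM in KO2, against 2.72, 0.981 and 2.15 CPM in WT, and PRRX1 had 290.6 and 506.0 CPM in KO2, against 26.6, 19 and 20.9 CPM in WT. RUNX2, the regulator of bone formation, had 23.3 and 18.4 CPM in KO2, against 1.58, 1.23 and 0.967 CPM in WT. Those 6 named genes were stable calls, and for each the KO2 libraries lay within 2-fold of each other. The transcription factor list as a whole was less even. At least 5 CPM in the higher library and a 4-fold gap were found for 7 of the 37 with KO2 replicate 2 higher. With KO2 replicate 1 higher it was 1 of the 37. The shares of all genes tested were 0.667% and 1.28%.

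**Figure D3:**
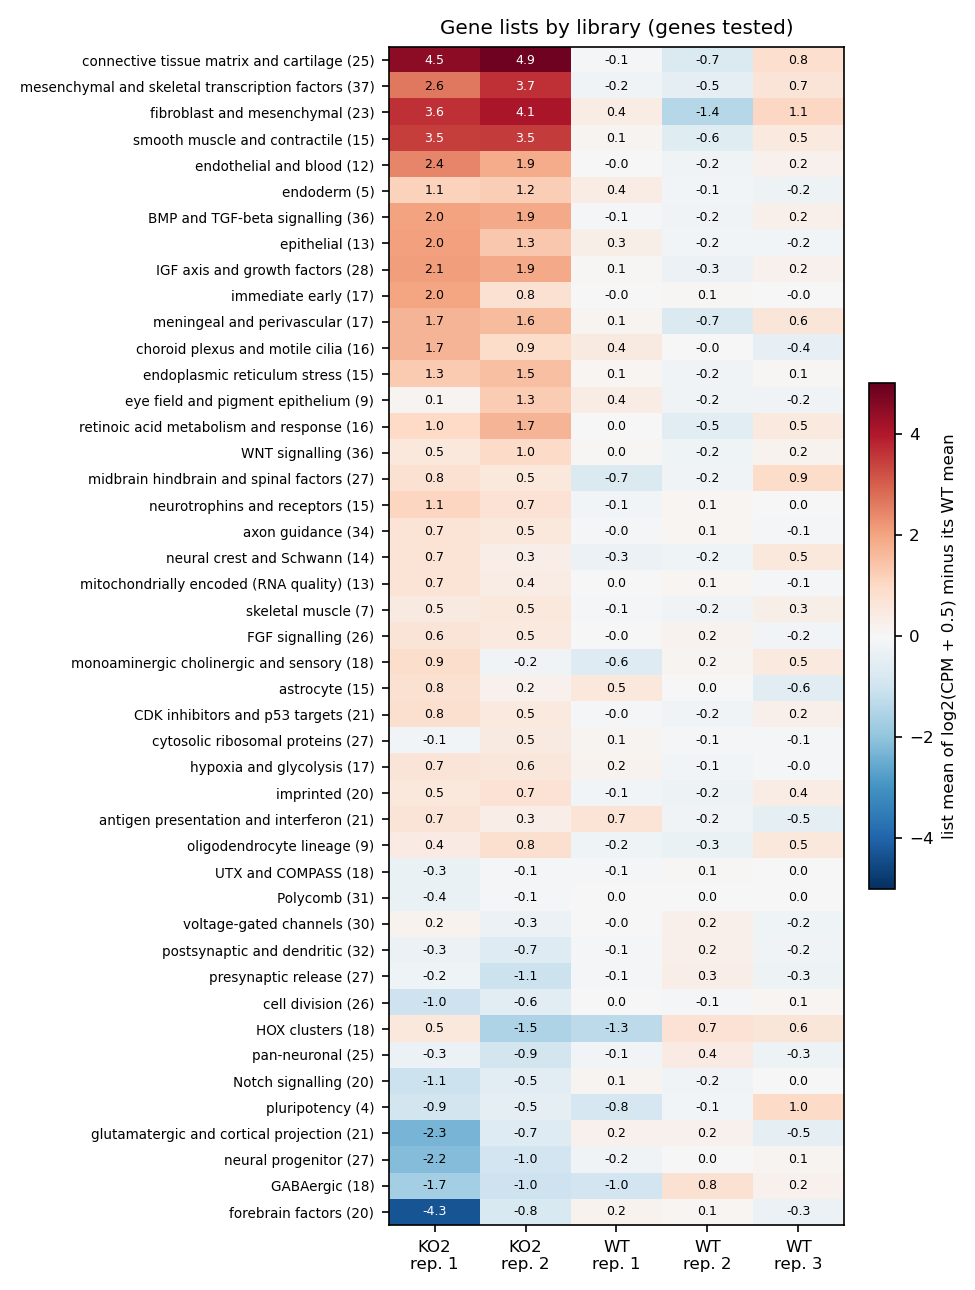
Mean log2(CPM + 0.5) of each gene list in each library, minus the mean of the 3 WT libraries, ordered by the median log2 fold change. The number of genes tested is in brackets. Both KO2 columns are high for connective tissue, mesenchymal and contractile lists, and they differ most for forebrain factors and HOX clusters at the lower end.

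Markers of other lineages were higher in part. Of 12 endothelial and blood markers tested, 4 were called higher, with summed levels of 147.9 and 97.5 CPM in KO2, against 11.2, 10.0 and 10.6 CPM in WT. KDR, a VEGF receptor, had 39.2 and 22.1 CPM in KO2, against 0.81, 0.946 and 1.67 CPM in WT (log2 fold change 4.76, SE 0.423; edgeR FDR 0.00675), while the endothelial adhesion molecule PECAM1 was at 0 and 0.0505 CPM in KO2. Of 13 epithelial markers, 5 were called higher, and the sums were 554.2 and 107.8 CPM in KO2, against 30.2, 19.2 and 22.4 CPM in WT. KRT8, a simple-epithelium keratin, had 222.6 and 38.9 CPM in KO2, against 6.36, 5.71 and 7.63 CPM in WT (edgeR FDR 0.0193, and 0.0761 to 0.0854 without any 1 of the WT replicates), whereas the epithelial adhesion molecules EPCAM (edgeR FDR 0.591) and CDH1 (edgeR FDR 0.319) did not pass. RGS5, a pericyte marker, had 403.6 and 164.5 CPM in KO2, against 5.79, 2.03 and 6.72 CPM in WT (log2 fold change 5.89, SE 0.637; edgeR FDR 0.00874), and 4 of 17 meningeal and perivascular markers were called higher.

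Secreted signals and their modulators were higher in KO2 as well. Among 36 BMP and TGF-beta genes, 20 were called higher and 3 lower (median log2 fold change 2.22), with 12 to 19 higher when a library was left out, the fewest without WT replicate 2. INHBA, the activin A subunit, had 39.9 and 62.5 CPM in KO2, against 0.243, 0.385 and 0.967 CPM in WT (log2 fold change 6.64, SE 0.539; edgeR FDR 0.00636). TGFB2, a TGF-beta ligand, had 126.2 and 119.2 CPM in KO2, against 15.2, 10.7 and 22.7 CPM in WT, and LTBP2, a latent TGF-beta binding family member, had 105.3 and 59.5 CPM in KO2, against 4.09, 2.49 and 3.76 CPM in WT. Both KO2 libraries were above WT in 26 of the 36 genes. The members that fell were CHRDL1, a BMP antagonist (29.7 and 22.2 CPM in KO2, against 101.2, 75.2 and 85.9 CPM in WT), ID4, an inhibitor of bHLH factors in neural progenitors (215.6 and 277.6 CPM in KO2, against 931.1, 879.1 and 726.0 CPM in WT), and the receptor BMPR1B, which kept its call only without KO2 replicate 2 (FDR 0.0709 to 0.102 otherwise).

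Of 28 genes of the IGF axis and growth factors, 15 were called higher and 0 lower (median log2 fold change 1.87), with 6 to 14 higher when a library was left out, the fewest without WT replicate 2. EGFR, the epidermal growth factor receptor, had 154.0 and 204.4 CPM in KO2, against 12.8, 10.8 and 18.1 CPM in WT (log2 fold change 3.69, SE 0.263; edgeR FDR 0.00629). Of 36 WNT genes, 11 were called higher and 1 lower (median 0.97), with 1 higher without WT replicate 1 and 3 to 9 without another library. DKK2, a WNT modulator, had 595.3 and 146.1 CPM in KO2, against 2.35, 2.31 and 6.72 CPM in WT, and FZD3, a WNT receptor of axon guidance, had 213.4 and 170.7 CPM in KO2, against 441.1, 318.8 and 342.7 CPM in WT. DKK2 was higher (edgeR FDR 0.0113) and FZD3 lower (edgeR FDR 0.0413). Without WT replicates 1 and 2 in turn the FDR of DKK2 was 0.0522 and 0.0546, and that of FZD3 was 0.0717 to 0.107 over the 5 fits. Of 15 neurotrophin genes, 4 were called higher. BDNF, which is also a component of the medium as a protein, had 19.7 and 15.5 CPM in KO2, against 1.42, 3.26 and 2.36 CPM in WT (log2 fold change 2.9, SE 0.389; edgeR FDR 0.0135, and 0.0521 without WT replicate 3). SLIT3, an axon guidance ligand, had 218.9 and 361.7 CPM in KO2, against 20.1, 28.4 and 29.5 CPM in WT, and 9 of 34 guidance genes were called higher.

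Genes of the endoplasmic reticulum stress response were higher in KO2. Of 15 tested, 10 were called higher, and 14 had both KO2 libraries above WT (median log2 fold change 1.25). With a library left out, 4 to 8 were called, the fewest without WT replicate 1. HSPA5, the main chaperone of the endoplasmic reticulum, had 768.0 and 763.2 CPM in KO2, against 325.5, 296.1 and 307.1 CPM in WT (log2 fold change 1.31, SE 0.129; edgeR FDR 0.00791). TRIB3, a pseudokinase induced by this response, had 52.0 and 61.3 CPM in KO2, against 13.1, 9.78 and 8.81 CPM in WT. Both were stable calls. CREB3L1, a membrane-bound factor that drives collagen secretion, had 50.9 and 148.9 CPM in KO2, against 3.32, 0.771 and 5.8 CPM in WT (edgeR FDR 0.022, and 0.0838 and 0.0533 without WT replicates 1 and 3).

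Neuronal genes were lower in part. Of 25 pan-neuronal markers, 7 were called lower and 2 higher, and 16 passed in neither direction (median log2 fold change -0.82). With a library left out, 3 or 4 were called lower, and the mean over these markers, in log2(CPM + 0.5), was 7.18 and 6.52 in KO2, against 7.31, 7.87 and 7.19 in WT. TUBB3, the neuronal beta-tubulin, had 369.6 and 422.6 CPM in KO2, against 969.7, 1173.8 and 970.1 CPM in WT (log2 fold change -1.39, SE 0.172; edgeR FDR 0.0113). ELAVL4, a neuronal RNA-binding protein, had 17.5 and 23.0 CPM in KO2, against 89.8, 97.4 and 83.4 CPM in WT (log2 fold change -2.16, SE 0.179; edgeR FDR 0.00636). Both genes were stable calls with no overlap between the groups. The neurofilament gene NEFM had 227.8 and 27.9 CPM in KO2, against 35.6, 246.2 and 101.8 CPM in WT, so that KO2 replicate 1 lay inside and KO2 replicate 2 below the WT range. CNTN1, an axonal adhesion molecule, was higher, with 124.3 and 124.8 CPM in KO2, against 32.4, 41.0 and 31.8 CPM in WT (log2 fold change 1.83, SE 0.154; edgeR FDR 0.00636). The other gene called higher, THY1, is also a member of the fibroblast and mesenchymal list. It had 68.7 and 64.3 CPM in KO2, against 45.7, 34.6 and 30.7 CPM in WT (edgeR FDR 0.0462, and 0.14 and 0.114 without WT replicates 2 and 3). The fibroblast and mesenchymal sums given above moved with the neuronal decreases, and their part in them was not tested.

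Among synaptic genes, KO2 replicate 2 was below all WT libraries in 25 of 27 presynaptic genes (34.6% of all genes tested) and KO2 replicate 1 in 14 (37.5% of all genes tested). edgeR called 2 presynaptic genes lower and 0 higher, CPLX1, a complexin, with 4.88 and 5.0 CPM in KO2, against 15.6, 24.0 and 24.0 CPM in WT (edgeR FDR 0.0127, and 0.0552 without WT replicate 2), and the fusion protein gene STX1A (edgeR FDR 0.0486, and 0.0964 to 0.146 in the 5 fits with a library left out). Of 32 postsynaptic and dendritic genes, 7 were called lower and 0 higher (median -0.46), with 2 or 3 lower when a library was left out. GRIA2, an AMPA receptor subunit, had 31.2 and 28.8 CPM in KO2, against 90.3, 121.7 and 91.9 CPM in WT (log2 fold change -1.76, SE 0.186; edgeR FDR 0.00874), and LRRTM2, a postsynaptic adhesion protein, had 3.45 and 3.72 CPM in KO2, against 18.1, 16.5 and 17.6 CPM in WT. GRIA2 and LRRTM2 were stable calls. Of 30 voltage-gated channels, 3 were called higher (10.0%, near the 8.25% of all genes tested) and 3 lower (10.0%, against 3.67%). Without WT replicates 1, 2 and 3 in turn, 1, 2 and 2 were called higher and 0, 0 and 4 lower. Among the 3 higher was the T-type calcium channel CACNA1G (94.2 and 156.6 CPM in KO2, against 31.1, 24.8 and 28.6 CPM in WT), a stable call.

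All 26 cell division genes had both KO2 libraries below every WT library, against 24.9% of all genes tested, and 13 were called lower (median log2 fold change -0.78). This count rested on the libraries used, being 18 without KO2 replicate 2 and 0 without KO2 replicate 1 or any 1 of the WT replicates. MCM4, a subunit of the replicative helicase, had 125.7 and 140.8 CPM in KO2, against 222.6, 220.9 and 213.8 CPM in WT (log2 fold change -0.72, SE 0.13; edgeR FDR 0.0258), and MKI67, a marker of cycling cells, had 177.0 and 235.9 CPM in KO2, against 382.8, 363.6 and 411.0 CPM in WT (edgeR FDR 0.0306). The calls of MCM4 and MKI67 were each kept only without KO2 replicate 2, with FDRs of 0.0652 to 0.0871 in the other fits. CDKN2B, an inhibitor of the kinases CDK4 and CDK6, was higher, with 71.1 and 40.5 CPM in KO2, against 1.3, 0.841 and 1.24 CPM in WT (log2 fold change 5.65, SE 0.341; edgeR FDR 0.00629), a stable call. CDKN2A, its neighbour in the genome, had 2.19 and 2.45 CPM in KO2, against 0.203, 0.14 and 0.0537 CPM in WT (edgeR FDR 0.0126, and 0.0578 without WT replicate 2).

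Of 27 neural progenitor genes, 8 were called lower and 0 higher (median log2 fold change -1.47). The count was 16 without KO2 replicate 2, 7 without KO2 replicate 1, and 2, 2 and 3 without WT replicates 1, 2 and 3. SOX2, a factor that maintains progenitors, had 112.9 and 160.3 CPM in KO2, against 323.1, 342.4 and 363.5 CPM in WT (log2 fold change -1.33, SE 0.194; edgeR FDR 0.016), and SOX11, a factor of newborn neurons, had 257.3 and 301.3 CPM in KO2, against 779.6, 853.8 and 691.4 CPM in WT (log2 fold change -1.47, SE 0.171; edgeR FDR 0.00962). SOX11 was a stable call, and SOX2 lost its call without WT replicates 1, 2 and 3 in turn (FDR 0.0508, 0.0612 and 0.0505). PAX6, a regulator of cortical progenitors, had 11.6 and 125.7 CPM in KO2, against 325.2, 334.3 and 425.2 CPM in WT, and did not pass (edgeR FDR 0.147). The receptor NOTCH1 had 155.5 and 242.6 CPM in KO2, against 514.8, 408.4 and 456.7 CPM in WT (edgeR FDR 0.0313), and its ligand DLL1 had 23.0 and 63.7 CPM in KO2, against 177.9, 156.3 and 206.7 CPM in WT (edgeR FDR 0.0404). Both kept their call without KO2 replicate 2, while NOTCH1 lost it with any other library left out (FDR 0.0663 to 0.0847) and DLL1 without any 1 of the WT replicates (FDR 0.0951 to 0.101).

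Genes of regional identity separated the KO2 libraries from each other. Over all genes tested, 367 (1.94%) differed at least 4-fold between KO2 replicates 1 and 2 with at least 5 CPM in the higher, 241 of them higher in replicate 1 (1.28%) and 126 in replicate 2 (0.667%). The same count was 96, 195 and 119 for the pairs of WT libraries. Of the 367 genes, 53 were among the calls against WT. With 1 library a side, these differences have no replicate check.

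Among 20 forebrain factors tested, 12 were at least 4-fold higher in KO2 replicate 2 and 0 in replicate 1. Against WT, the median log2 fold change of the list was -2.04. In 11 of the 20 both KO2 libraries lay below every WT library, against 24.9% of all genes tested, though 0 were called lower with no library left out. The list mean on the log2 CPM scale was 1.59 and 5.13 in KO2 replicates 1 and 2, against 6.1, 6.02 and 5.6 in WT. A wide gap between replicates works against a call, so the 0 does not show that the list was unchanged. TBR1, a factor of deep-layer cortical neurons, had 0.224 and 73.8 CPM in KO2, against 273.6, 244.9 and 98.9 CPM in WT, and NR2E1, a progenitor receptor of the forebrain, had 0.0896 and 35.2 CPM in KO2, against 84.7, 107.1 and 133.9 CPM in WT. In both genes KO2 replicate 1 was near 0, and KO2 replicate 2 lay between it and WT. SP8, OTX1, DMRTA2 and FEZF2 showed the same order of KO2 libraries. None of these was called (edgeR FDR 0.293 to 0.373). OTX2, which marks forebrain and midbrain, had 47.2 and 55.4 CPM in KO2, against 40.8, 48.1 and 54.5 CPM in WT, and its groups overlapped. The 1 forebrain gene called was EFNA5, a guidance ligand, with 89.5 and 108.4 CPM in KO2, against 30.0, 38.7 and 29.1 CPM in WT (log2 fold change 1.6, SE 0.179; edgeR FDR 0.00897).

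HOX genes, which specify position from the hindbrain backwards, showed the opposite order. Of 39 HOX genes, 18 passed the filter on low counts, 8 of them at least 4-fold higher in KO2 replicate 1 and 1 in replicate 2, and 0 were called in either direction by edgeR (1 at an unadjusted p under 0.05, HOXC5, which DESeq2 called lower). HOXA3 had 79.7 and 1.79 CPM in KO2 replicates 1 and 2, against 5.75, 2.0 and 9.29 CPM in WT (log2 fold change 2.85, SE 1.33; edgeR FDR 0.212). HOXA5 had 38.6 and 0.102 CPM in KO2, against 2.47, 1.72 and 2.42 CPM in WT (log2 fold change 3.14, SE 1.54; edgeR FDR 0.231). For both genes KO2 replicate 1 lay above and KO2 replicate 2 below all WT libraries, and with KO2 replicate 1 left out HOXA5 turned round to a log2 fold change of -4.35 (edgeR FDR 0.0397). HOXB3 had 215.5 and 37.8 CPM in KO2, against 59.9, 142.4 and 171.1 CPM in WT. The exception was HOXD4, with 0.896 and 6.89 CPM in KO2, against 1.09, 4.63 and 20.3 CPM in WT. WT libraries also varied, with list means of 3.07 and 1.0 log2(CPM + 0.5) in KO2, against 1.25, 3.25 and 3.13 in WT. The plot of regional genes by library shows both lists.

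**Figure D4:**
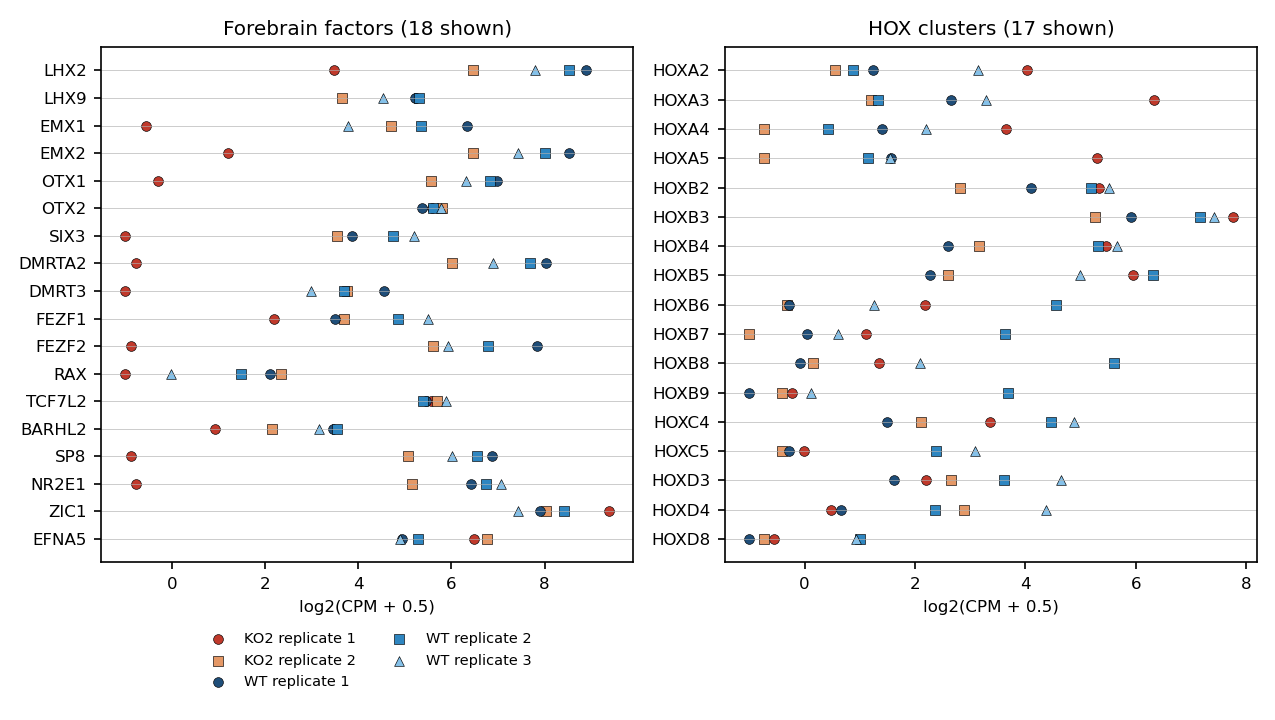
Level of 18 of the 20 forebrain factors (left) and 17 of the 18 HOX genes (right) tested, in log2(CPM + 0.5), with 1 symbol per library. For most forebrain factors KO2 replicate 1 is far left of the other libraries, and for HOXA2 to HOXA5 KO2 replicate 1 is right of and KO2 replicate 2 left of all WT libraries.

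The remaining genes with the widest gap came from mixed groups. SSTR1, a somatostatin receptor, had 126.3 and 1.63 CPM in KO2, against 2.23, 6.38 and 6.66 CPM in WT, and ITGB4, an integrin of epithelia and Schwann cells, had 138.6 and 2.5 CPM in KO2, against 2.47, 0.561 and 2.26 CPM in WT. GFAP, the astrocyte filament gene, had 41.7 and 0.816 CPM in KO2, against 4.74, 0.701 and 0.161 CPM in WT, and the kidney and mesothelial factor WT1 had 24.7 and 0.204 CPM in KO2, against 2.39, 0.035 and 0 CPM in WT. In all of these KO2 replicate 1 stood far above the other 4 libraries. WNT8B, a WNT ligand of the medial forebrain, had 0.269 and 49.0 CPM in KO2, against 51.8, 28.1 and 12.4 CPM in WT, so that KO2 replicate 2 lay inside the WT range. FOXL2NB, a neighbour of FOXL2, had 0.672 and 63.7 CPM in KO2, against 0, 0 and 1.34 CPM in WT.

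Over all genes tested, both KO2 libraries lay above all WT libraries in 4705 (24.9%) and below them in 4697 (24.9%), together 9402 (49.8%). They lay on opposite sides of the WT range in 624 genes with replicate 1 above and 602 with replicate 2 above. All 2251 called genes had both KO2 libraries on the same side. The KO2 libraries were within 2-fold of each other in 82.3% of the genes called higher, 97.1% of those called lower and 89.4% of all genes tested. A small spread between replicates favours a call, so neither the count of 2251 nor these shares measure agreement on their own.

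H3K27me3 was compared through the deposited peak lists, 1 for knockout and 1 for WT neurons. Both knockout lines have H3K27me3 samples, while the header of the knockout list names 1 alignment without its line, so the list is not known to describe KO2. It rests on 37696481 tags, against 22448528 in the WT list. A peak within 2 kb of the start site, or of either gene end where the strand was not given, was found in the KO list for 26.3% of genes called higher, 19.4% of those called lower and 15.1% of all positioned genes. The shares in the WT list were 31.0%, 13.6% and 14.6%. Genes with a WT peak were called higher in 19.6% of cases, against 7.44% of genes without one, and their median WT level was lower (5.05 against 28.2 CPM). The part of level in this difference was not tested. With 1 list per genotype there is no replicate check.

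Genes listed in 1 genotype only were described separately. Of 299 genes with a peak in the WT list only, 29.8% were called higher and 1.67% lower (median log2 fold change 0.97). Of 378 genes with a peak in the KO list only, 5.03% were called higher and 11.4% lower (median -0.33). Among genes in neither list, 7.5% were called higher and 3.88% lower. The following genes were chosen after their values were seen. THBS1, an adhesive glycoprotein that activates TGF-beta, had a WT peak of 1154 bases (15, 39580571 to 39581724) and 889.2 and 611.4 CPM in KO2, against 11.6, 3.78 and 17 CPM in WT. ACTA2, smooth muscle actin, had a WT peak of 878 bases and 362.0 and 367.9 CPM in KO2, against 6.28, 4.63 and 19.5 CPM in WT. MYT1, a zinc finger factor of neurogenesis, had a KO peak of 1098 bases (20, 64162139 to 64163236) and 14.8 and 16.6 CPM in KO2, against 56.3, 94.6 and 71.2 CPM in WT (log2 fold change -2.24, SE 0.258; edgeR FDR 0.00949). RASGRP1, an activator of RAS, had a KO peak of 770 bases and 10.3 and 10.2 CPM in KO2, against 54.1, 51.9 and 34.9 CPM in WT. All 4 genes were stable calls.

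**Figure D5:**
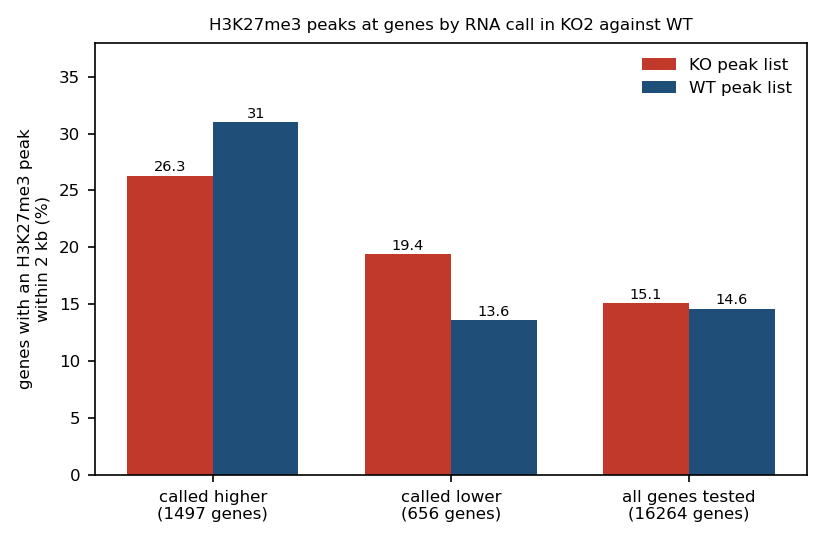
Share of genes, in percent, with a deposited H3K27me3 peak within 2 kb, for genes called higher in KO2, called lower in KO2 and all positioned genes tested. Red bars are the KO list and blue bars the WT list. Genes called higher have the highest shares, with 26.3% in the KO list and 31.0% in the WT list.

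Calls among genes of the chromatin machinery itself are set beside the 8.25% of all genes tested called higher and the 3.67% called lower. Of 18 genes of UTX and its COMPASS partners, 0 were called by edgeR in either direction (4 at an unadjusted p under 0.05, of which DESeq2 called KMT2A lower), with a median log2 fold change of -0.24. KDM6B, the other H3K27 demethylase of the list, had 99.9 and 126.5 CPM in KO2, against 140.1, 172.9 and 198.5 CPM in WT (edgeR FDR 0.114). Of 31 Polycomb genes, 16 had both KO2 libraries below every WT library, against 24.9% of all genes tested. An unadjusted edgeR p under 0.05 was reached by 10 of the 31. DESeq2 called 9, beside 13.7% of all genes called higher and 9.53% lower by that tool. By edgeR, 2 were called lower (6.45%) and 0 higher. They were PHC2, a subunit of Polycomb repressive complex 1, with 114.8 and 131.3 CPM in KO2, against 211.2, 219.1 and 194.9 CPM in WT (log2 fold change -0.76, SE 0.14; edgeR FDR 0.0269), and JARID2, a partner of complex 2, with 59.2 and 82.1 CPM in KO2, against 141.0, 117.3 and 131.0 CPM in WT (edgeR FDR 0.0391). Each kept its call only without KO2 replicate 2 (FDR 0.0578 to 0.113 otherwise). EZH2, the methyltransferase of complex 2, had 53 and 98.4 CPM in KO2, against 121.5, 128.5 and 153.4 CPM in WT, and did not pass (edgeR FDR 0.115).

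The line KO1 has 3 libraries and shares the WT controls, so values are set side by side on a scale over all 8 libraries. FN1 had 4572.4 and 5957.9 CPM in KO2 and 466.9, 10449.6 and 572.0 CPM in KO1, against 208.8, 202.1 and 516.8 CPM in WT. TNMD had 24.3 and 32.2 CPM in KO2 and 0.505, 52.9 and 1.65 CPM in KO1, against 0.162, 0.206 and 0.107 CPM in WT. KO1 replicate 2 was above and KO1 replicates 1 and 3 were below both KO2 libraries for these genes. ELAVL4 had 17.2 and 22.2 CPM in KO2 and 61.9, 6.29 and 89.8 CPM in KO1, against 89.9, 95.5 and 82.8 CPM in WT. CDKN2B had 70.0 and 39.1 CPM in KO2 and 22.3, 17.1 and 6.06 CPM in KO1, against 1.3, 0.825 and 1.23 CPM in WT. UTP14C was listed at 0 in both KO2 libraries and in KO1 replicate 2 and stood at 9.14 and 15.6 CPM in KO1 replicates 1 and 3, against 16.3, 16.9 and 18.2 CPM in WT. A direct test of KO2 against KO1 in the fit with 3 groups called 0 of 19440 genes by edgeR (436 genes had an unadjusted p under 0.05), whereas DESeq2 called 9. Without KO1 replicate 2, edgeR called 727 genes higher and 231 lower in KO2 than in KO1. This fit was added after seeing the data. In fold terms, KO1 replicate 2 was the KO1 library nearest to both KO2 libraries for FN1 and TNMD, though not for CDKN2B. For ELAVL4, KO1 replicate 2 was nearest to KO2 replicate 1, and KO1 replicate 1 was nearest to KO2 replicate 2. Leaving out a library that is near KO2 for some genes favours calls between the lines. These counts therefore do not measure a line difference on their own.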

How the data were processed

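PolyA RNA was sequenced from day 40 neurons. Per the submitters' processing notes, reads were quantified with Salmon 1.1.0 on GRCh38 and tested with DESeq2 1.26.0, and ChIP reads were aligned with Bowtie2 2.4.1. The RNA values deposited by the authors are estimated counts for each gene symbol, not normalized. How transcripts were summed to genes, and with which annotation, is unstated. Peak calling used MACS2 2.2.7.1 with a q-value of 0.01, per the file headers. For every peak the authors deposited a pileup signal, a fold ratio against the control library and a −log10 q-value.

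Counts were rounded and tested with edgeR 4.0.16 in R 4.3.3 (filterByExpr, TMM, quasi-likelihood test, Benjamini-Hochberg adjustment over all genes, FDR under 0.05). The procedure was also run on simulated counts with known folds, drawn with the spread of these same libraries. That run does not check the calls made here. DESeq2 1.42.0, voom with sample weights (limma 3.58.1), RLE scaling, other filters, a fold threshold, a replicate block, all 3 RNA groups and leaving out each library were alternatives. A fit with 3 groups but no KO1 replicate 2, and peaks by start site only, were added after seeing the data. Genes are named as the 15 largest changes per direction among calls with both KO2 libraries outside the WT range and a mean of at least 5 CPM in either group, up to 2 members per list and direction by lowest p, the 10 widest gaps between the KO2 libraries each way (at least 10 CPM in the higher), KDM6A, and the 5 largest increases with a WT peak. Further list members were named after their values were seen. Symbols without a standard gene name were passed over, and a few genes that the rule names are not reported here. The 45 gene lists, the comparison and the tests were chosen with earlier results of these data known, and some genes may appear in several lists. Peaks were assigned within 2 kb of the start site, or of either gene end where no strand was given (86.2% of tested genes had a position in RefSeq, GRCh38.p14), with at least 1 base of overlap. Replicate numbers were not shown to pair KO2 with WT. Library totals of 17374615 to 27779687 counts limit the precision of genes with few counts.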

Additional observations from a re-analysis of the deposited data

How the results depend on the processing

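The count of 2251 calls was 2256 with RLE scaling, 2454 with a stricter filter on low counts and 2022 with sample weights. It moved to 3429 without a filter on low counts, 4390 by DESeq2, 930 against a fold threshold of 1.5, and 878 by DESeq2 and 0 by edgeR with all 3 RNA groups. Leaving out 1 library gave 539 to 2200. With the replicate number as a block there were 93 calls, 92 higher and 1 lower. The block rests on 2 pairs, whose deviations correlated at 0.0581 and -0.0978, so the numbers are not shown to pair the libraries.

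KO2 against KO1 moved from 0 calls to 9 by DESeq2 and 958 without KO1 replicate 2. The 9402 genes with both KO2 libraries outside the WT range came to 2449 with a gap of at least 1.5-fold, and the 367 genes apart between the KO2 libraries to 1382 at a fold of 2 and 223 at 20 CPM. The share of all genes with a KO list peak was 16.7% within 5 kb, 14.4% at a −log10 q of at least 5 and 13.8% by start sites only, and with a WT list peak 16.1%, 13.8% and 13.4%. Of the 45 list medians, 3 turned round in a fit with 1 library left out: pluripotency without WT replicate 3 (0.04, with a range of -1.12 to 0.04 over the 5 fits), voltage-gated channels without KO2 replicate 2 (-0.65 to 0.01) and cytosolic ribosomal proteins without KO2 replicate 2 (-0.18 to 0.45). Among 205 named genes, HOXA5 reversed without KO2 replicate 1 (-4.35, with a range up to 4.15). Others also owed their sign to KO2 replicate 1. HOXA3 and SSTR1, for example, had positive log2 fold changes of 2.85 and 3.65. Their KO2 replicate 2 values, 1.79 and 1.63 CPM, lay below the WT means of 5.68 and 5.09 CPM. The cause of these moves was not tested.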

Other observations

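Single genes were called in several smaller lists, beside 8.25% of all genes tested called higher and 3.67% lower. Of 17 immediate early genes, 6 were called higher by edgeR (11 without KO2 replicate 2, and 1 to 3 without another library), among them IER3, a stress-induced regulator of survival (113.5 and 47.6 CPM in KO2, against 7.82, 3.82 and 5.1 CPM in WT), and FOSL2, a FOS-family factor (120.4 and 52.8 CPM in KO2, against 10.8, 5.89 and 6.18 CPM in WT). Without WT replicate 3 the edgeR FDR was 0.0507 for IER3 and 0.0521 for FOSL2, and FOSL2 had 0.0546 without WT replicate 2. The hypoxia and glycolysis list had a median log2 fold change of 0.13, yet 3 of its 17 genes were called higher, among them NDRG1 (56.4 and 65.7 CPM in KO2, against 7.5, 5.15 and 8.33 CPM in WT) and the peptide hormone gene ADM (31.7 and 20.6 CPM in KO2, against 0.324, 0.736 and 0.752 CPM in WT). In the antigen presentation and interferon list (median 0.11), the interferon-induced membrane protein IFITM3 had 266.4 and 149.1 CPM in KO2, against 37.0, 27.4 and 28.3 CPM in WT (edgeR FDR 0.00842). Of 20 imprinted genes (median 0.12), 3 were called higher and 1 lower. MEST had 414.3 and 273.2 CPM in KO2, against 134.9, 139.0 and 129.1 CPM in WT, and NNAT, a neuronal proteolipid gene, had 307.8 and 348.9 CPM in KO2, against 1182.1, 1128.0 and 680.0 CPM in WT. MEST lost its call without any 1 of the WT replicates (edgeR FDR 0.0654 to 0.0662), and NNAT kept its call only without WT replicate 3 (0.0527 to 0.0894 otherwise).

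Glial genes went both ways. GJA1, the gap junction protein connexin 43, had 574.0 and 685.5 CPM in KO2, against 94.4, 44.3 and 152.2 CPM in WT (edgeR FDR 0.025), and PTPRZ1, a receptor phosphatase of radial glia, had 217.0 and 346.0 CPM in KO2, against 1043.2, 868.1 and 733.5 CPM in WT (edgeR FDR 0.0204). GJA1 lost its call without either KO2 library or WT replicate 1 (FDR 0.0503 to 0.0898), and PTPRZ1 without WT replicates 1 and 2 (FDR 0.0612 and 0.0727). GATA2, a factor of blood and midbrain GABAergic neurons, had 48.2 and 25.7 CPM in KO2, against 0.284, 0.841 and 1.13 CPM in WT (log2 fold change 5.63, SE 0.569; edgeR FDR 0.00832). RPE65, the retinoid isomerase of the retinal pigment epithelium, had 18.5 and 10.7 CPM in KO2, against 3.2, 3.57 and 1.83 CPM in WT, and kept its call only without KO2 replicate 2 (FDR 0.0602 to 0.0794 otherwise). The 13 mitochondrially encoded genes summed to 44213 and 36271 CPM in KO2, against 32305, 31788 and 28288 CPM in WT, and 2 of them were called higher. The part of RNA quality in these results was not tested.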
